A study of Mus musculus with 6 samples.

Results

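The centromeric neighbour of the Kcnj/Sox9 locus is a stretch of 1180 kb on mouse chromosome 11, from 109010001 to 110190000 in mm9, that none of the studied mutations alters. All pairs of 10 kb bins with both bins in this stretch and 2 or more bins apart were taken, which gave 6786 of the 172578 bin pairs of the captured map. Each pair was read in 6 capture Hi-C libraries, in the raw map and in the map after KR (Knight-Ruiz) balancing, which gives every bin the same sum. In capture Hi-C, chromatin is cross-linked, neighbouring DNA ends are joined, probes enrich the locus of interest, and every joined pair adds a contact between its bins. The stretch and 2 insulation minima, near 109510001 and 110190001, had been picked from these same maps, so their depth is described and not tested.

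The material was limb buds of mouse embryos at E12.5, called distal limbs in the series' design text, and each genotype is represented by a single library. WT is the unaltered control. As the mice are known from the published study, deltaBor lacks the boundary between the Kcnj and Sox9 domains, Dup-S duplicates a stretch inside the Sox9 domain, and Dup-L and Dup-C are larger duplications that include the boundary, of which Dup-C also takes in Kcnj2. Dup-LdeltaBor combines the Dup-L duplication with loss of the boundary. The labels give neither zygosity nor the number of embryos per library. Each contact count is an average over the cell types of the limb bud, and the assay measures no marker of them. With 1 library per genotype no test between genotypes was possible. The 95% intervals (exact Poisson for ratios to an expected count, Clopper-Pearson for folds and shares) cover counting error only and no spread between libraries. They treat contacts as independent, which copies made by PCR would not be, and whether such copies were removed is not stated.

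Topologically associating domains are stretches of chromatin whose pieces contact each other more often than they contact the neighbouring stretch. Their borders are often bound by CTCF and cohesin, and pairs of such sites can appear in contact maps as bright points at the corners of domains. Domains limit which genes and enhancers meet. In the GRCm38 RefSeq table, which was used for gene order only, the run from Axin2, a regulator of Wnt signalling, to Map2k6, a kinase that activates p38 MAP kinases, holds 16 genes. Among them are Gna13, a G protein alpha subunit, Prkar1a, a regulatory subunit of protein kinase A, Wipi1, a protein of autophagy, and the 5 neighbours Abca8b, Abca8a, Abca9, Abca6 and Abca5. The Abca genes encode ATP-binding cassette transporters, a family known for moving lipids across membranes. Gene positions on mm9 were not used here, so no gene is assigned to a bin, and that the Abca genes lie in the stretch rests on its working name.

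Contacts within the region numbered 597441 in WT, 491281 in deltaBor, 521225 in Dup-LdeltaBor, 553317 in Dup-L, 399972 in Dup-S and 234280 in Dup-C. The median count per bin pair was 49 in WT, 39 in deltaBor, 43 in Dup-LdeltaBor, 46 in Dup-L, 33.5 in Dup-S and 19 in Dup-C. Between 1 (deltaBor and Dup-L) and 29 (Dup-C) of the 6786 pairs held no contact. Dup-C was the shallowest library, with 4144258 contacts on the whole map against 8965219 in the deepest, Dup-LdeltaBor. At the limits of the choice, pairs 10 kb apart, just outside, held 1245 contacts on average in WT, and pairs 20 kb apart, just inside, held 589. The last bin inside, from 110180001, had 3839 contacts with the region in WT, and the first bin outside, from 110190001, had 6453.

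Contacts of the region's chosen pairs, which leave out same-bin and neighbouring-bin contacts, were divided by all contacts on the map, which include them. The result was 8.47% in WT, 7.75% in deltaBor, 5.81% in Dup-LdeltaBor, 6.71% in Dup-L, 7.57% in Dup-S and 5.65% in Dup-C. On this count it was highest in WT and lowest in Dup-C. Same-bin contacts in the region averaged 2007 in WT, 2331 in deltaBor, 1503 in Dup-LdeltaBor and 1069 in Dup-C. Neighbouring bins averaged 1245, 1111, 1060 and 533 contacts per pair in the same libraries. With these contacts added the order does not hold: deltaBor comes out highest and Dup-LdeltaBor lowest. As a second scale, contacts of the region were divided by those among the same number of bins at the other end of the map (113700001 to 114880000, called the telomeric end), which lies beyond the altered segments. The ratio was 0.962 (0.959 to 0.966) in WT, 0.993 (0.989 to 0.997) in deltaBor, 0.923 (0.919 to 0.926) in Dup-LdeltaBor, 0.947 (0.944 to 0.951) in Dup-L, 1.00 (0.999 to 1.01) in Dup-S and 0.918 (0.913 to 0.923) in Dup-C. The intervals of Dup-C and Dup-LdeltaBor, the lowest libraries, overlapped each other and lay below those of the other 4. Dup-S was highest. With pairs 5 or more bins apart, Dup-LdeltaBor (0.918) was below Dup-C (0.920). With KR-normalised values the 6 ratios lay between 1.01 and 1.02.

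To locate domain ends, contacts across each edge between neighbouring bins were averaged over a 200 kb by 200 kb square of bin pairs (a 200 kb diamond) and expressed as an insulation score, on a log2 scale relative to the mean over the region's edges. A minimum with a prominence of at least 0.3 marks an edge that few contacts cross. In WT such minima divided the region into 3 domains. The inner minimum, nearest to 109510001, lay at 109480001 with a score of -0.55 and a prominence of 0.88. The outer minimum, nearest to 110190001, lay at 110140001 with a score of -1.03 and a prominence of 0.98. A minimum between them, at 109740001, had a score of -0.69 and a prominence of 1.13; it passed the same threshold and was singled out after the profile had been seen. It is called the middle edge here. Numbered in order along the map, the domains are 109010001 to 109480000 (470 kb), 109480001 to 109740000 (260 kb) and 109740001 to 110140000 (400 kb). Another 50 kb is left up to 110190000. No edge bounds the first domain on its left. It starts where the map starts, and the 200 kb diamond scores no edge before 109210001. Its 470 kb is thus only the part on the map, and its full length is not known.

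**Figure D1:**
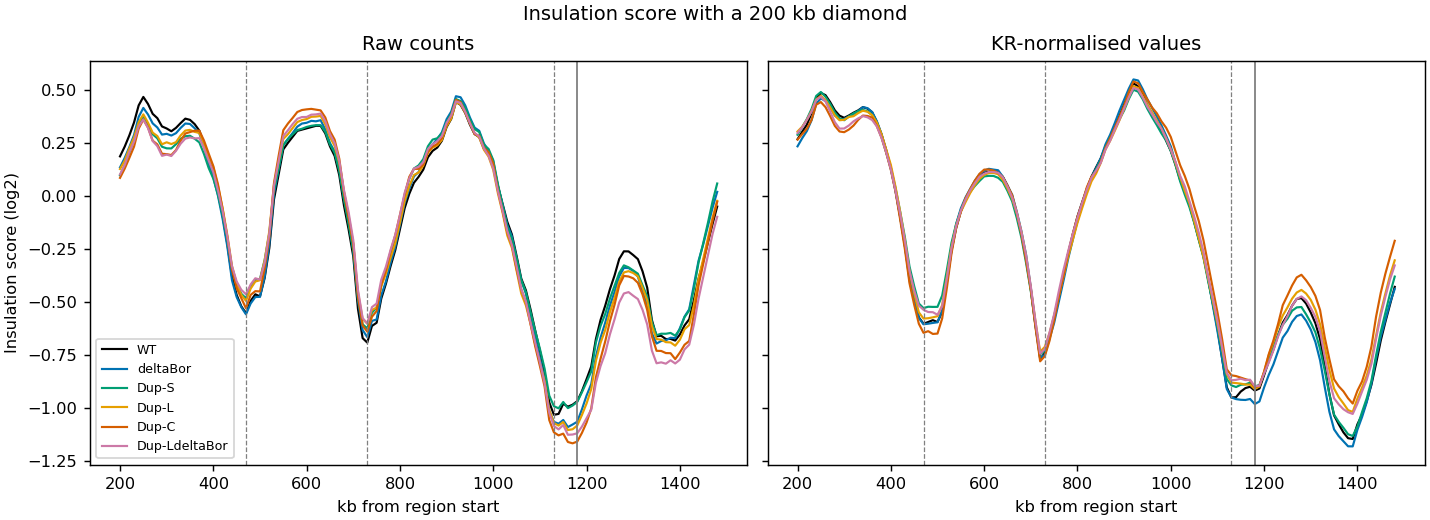
Insulation score (log2, 200 kb diamond) against distance from the start of the region in kb, from raw counts (left) and KR-normalised values (right), with 1 line per library. Dashed lines mark the WT edges and the solid grey line the end of the region; all lines dip at the 3 edges, and with KR-normalised values they reach their lowest point beyond the region's end.

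Inner and middle minima fell on the same edge in all 6 libraries. The score at the inner edge was -0.55 in WT, -0.56 in deltaBor, -0.46 in Dup-LdeltaBor, -0.49 in Dup-L, -0.48 in Dup-S and -0.53 in Dup-C. At the middle edge it was -0.69 in WT, -0.67 in deltaBor, -0.60 in Dup-LdeltaBor, -0.60 in Dup-L, -0.62 in Dup-S and -0.64 in Dup-C. The middle edge had the lower score in every library. The outer minimum was less fixed: it lay at 110140001 in WT, 110150001 in Dup-S, 110170001 in deltaBor, Dup-L and Dup-LdeltaBor, and 110180001 in Dup-C, which is 40 kb from the WT edge. The score of each library's own outer minimum was -1.03 in WT, -1.09 in deltaBor, -1.13 in Dup-LdeltaBor, -1.10 in Dup-L, -1.001 in Dup-S and -1.17 in Dup-C. With KR-normalised values the middle minimum lay at 109730001 in all 6 libraries. The inner one then lay at 109480001 in WT, deltaBor, Dup-S and Dup-L, at 109500001 in Dup-C and at 109510001 in Dup-LdeltaBor, and the outer one at 110140001 in WT, 110150001 in Dup-S and 110190001 in the others.

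The position 109510001 is the first edge at which a 500 kb diamond lies wholly on the map. With that diamond the WT score there was -0.30, and it was -0.29 at 10 kb and -0.03 at 50 kb further on. The value is thus the start of a rising profile and not a local minimum of it. In raw counts the middle minimum, at 109730001 with this diamond, had a prominence of 0.24 in WT and at most 0.26 in any library, under the threshold. The outer one lay at 110200001 in all 6 libraries in raw counts. With KR-normalised values the minimum past the threshold lay at 110360001 in WT, deltaBor, Dup-S and Dup-C. It stayed at 110200001 in Dup-L and Dup-LdeltaBor. A 100 kb diamond resolved a further minimum at 109300001, inside the first domain, in all 6 libraries, with a WT score of -0.32. It placed the inner and middle ones at 109470001 and 109730001.

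The crossing ratio is the number of contacts across an edge within the diamond, over the number expected from the mean count at each separation in the region of the same library. It takes out the fall of contacts with distance. The edges were chosen as minima of the WT counts, so a WT ratio below 1 follows from that choice and is no test. At the inner edge 28166 contacts crossed in WT, and the ratio was 0.657 (0.649 to 0.665) in WT, 0.655 (0.646 to 0.663) in deltaBor, 0.6997 (0.691 to 0.708) in Dup-LdeltaBor, 0.684 (0.676 to 0.692) in Dup-L, 0.694 (0.684 to 0.703) in Dup-S and 0.669 (0.656 to 0.681) in Dup-C. The intervals of Dup-LdeltaBor, Dup-L and Dup-S lay above that of WT, and those of deltaBor and Dup-C overlapped it. At the middle edge 25583 contacts crossed in WT, and the ratio was 0.597 (0.589 to 0.604) in WT, 0.608 (0.5996 to 0.616) in deltaBor, 0.636 (0.628 to 0.644) in Dup-LdeltaBor, 0.635 (0.627 to 0.643) in Dup-L, 0.629 (0.620 to 0.638) in Dup-S and 0.620 (0.608 to 0.632) in Dup-C. There the interval of deltaBor overlapped that of WT and the other mutants lay above it.

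Of the 3 named edges, the outer edge was the least crossed in every library. The region holds 50 kb beyond it, so most of the 200 kb on that side of the diamond lies outside the region. The expected counts come from inside the region only, so the outer edge is not measured on the same footing as the others. In WT 20206 contacts crossed it, and the ratio was 0.471 (0.465 to 0.478) in WT, 0.461 (0.454 to 0.468) in deltaBor, 0.455 (0.448 to 0.462) in Dup-LdeltaBor, 0.459 (0.452 to 0.465) in Dup-L, 0.488 (0.480 to 0.496) in Dup-S and 0.446 (0.436 to 0.456) in Dup-C. Dup-S lay above WT, Dup-LdeltaBor and Dup-C lay below, and the intervals of deltaBor and Dup-L overlapped that of WT. Among all 99 edges scored, where the median edge had 1.03 and the highest 1.33 in WT, the WT outer edge ranked 1 from the lowest in WT, 3 in Dup-S, 4 in deltaBor, 5 in Dup-L and Dup-LdeltaBor and 6 in Dup-C. The lowest edge of each mutant was its own outer minimum, such as 110180001 in Dup-C at 0.430. The middle edge ranked 10 to 12 and the inner edge 15 to 17 over the libraries. The order outer, middle, inner held in all 6 libraries with raw and with KR-normalised values. Differences from WT were less steady. With KR-normalised values the outer ratio was 0.493 in WT, 0.493 in deltaBor, 0.520 in Dup-LdeltaBor, 0.516 in Dup-L, 0.513 in Dup-S and 0.531 in Dup-C, so that Dup-LdeltaBor, Dup-L and Dup-C, which were below WT in raw counts, were above it and deltaBor was level with WT. At the inner edge the KR-normalised value of Dup-C was 0.610 against 0.627 in WT, and at the middle edge deltaBor and Dup-C had 0.567 and 0.566 against 0.570 in WT, each turned from the raw direction.

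**Figure D2:**
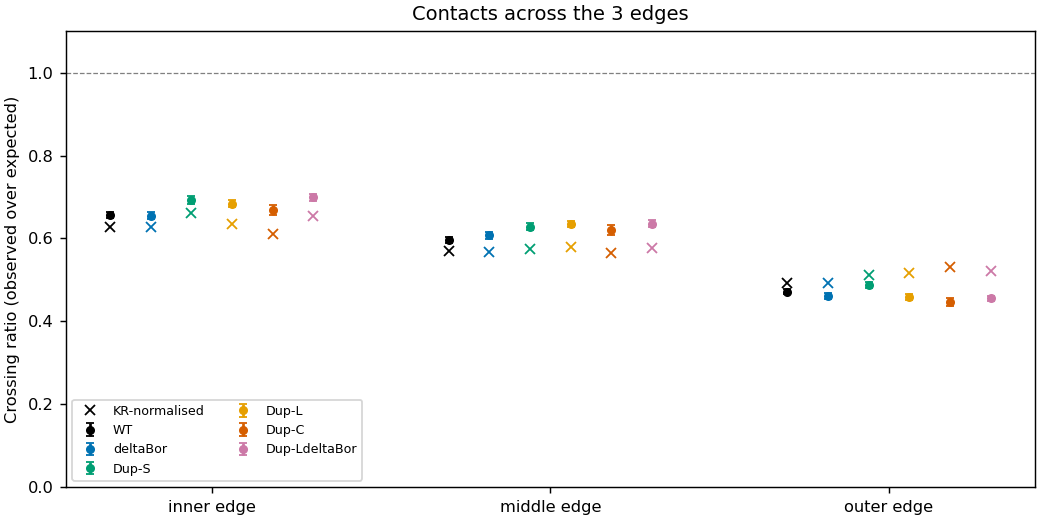
Crossing ratio (observed over expected contacts) at the inner, middle and outer edge, with 1 point per library, its exact 95% Poisson interval as a bar and the KR-normalised value as a cross. Every value lies below 1, and in each library the outer edge is lowest and the inner edge highest.

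Within domains contacts were more frequent than expected at their separations, and between domains less frequent. The domains were cut at minima of the WT counts and, on the left of the first domain, at the start of the map. Expected counts are means over the same region. In WT these directions therefore follow from the choice of edges and are no test of it. The ratio of observed to expected contacts in the second domain was 1.32 (1.32 to 1.33) in WT, 1.34 (1.33 to 1.35) in deltaBor, 1.39 (1.38 to 1.40) in Dup-LdeltaBor, 1.38 (1.37 to 1.39) in Dup-L, 1.35 (1.34 to 1.36) in Dup-S and 1.41 (1.39 to 1.42) in Dup-C. In the first domain it was 1.09 in WT, 1.06 in deltaBor, 1.04 in Dup-LdeltaBor, 1.05 in Dup-L, 1.04 in Dup-S and 1.04 in Dup-C, and in the third 1.08 in WT, 1.096 in deltaBor, 1.09 in Dup-LdeltaBor, 1.08 in Dup-L, 1.11 in Dup-S and 1.09 in Dup-C. The second, shortest domain was the highest in every library. With KR-normalised values it was instead the lowest of the 3 in every library, at 1.06 to 1.08, against 1.14 to 1.16 in the first and 1.13 to 1.15 in the third.

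Between the first and the second domain the ratio was 0.819 in WT, 0.816 in deltaBor, 0.836 in Dup-LdeltaBor, 0.833 in Dup-L, 0.843 in Dup-S and 0.817 in Dup-C. For the second with the third the WT ratio was 0.851 and the mutants lay at 0.854 to 0.870. The first and the third domain, which do not adjoin, were the most depleted, at 0.697 in WT and 0.695 to 0.714 in the mutants. With KR-normalised values the second with the third had 0.801 in WT, 0.802 in deltaBor, 0.794 in Dup-LdeltaBor, 0.799 in Dup-L, 0.794 in Dup-S and 0.790 in Dup-C, so that the mutants, all above WT in raw counts, were below it except deltaBor. For the first with the third, Dup-L also turned, from above WT in raw counts (0.699) to below it (0.721 against 0.725). Of all contacts within and between the first and the second domain, the share that joined one to the other was 20.8% in WT, 20.7% in deltaBor, 21.4% in Dup-LdeltaBor, 21.4% in Dup-L, 22.1% in Dup-S and 20.4% in Dup-C. The share for the second and the third was 23.0% in WT (22.8 to 23.2) and 22.1% (Dup-C) to 23.3% (Dup-L) in the mutants, and for the first and the third 10.2% in WT (10.1 to 10.3) and 9.58% (Dup-C) to 11.1% (Dup-S). Dup-C had the lowest share in all of these and Dup-S the highest or the next to it.

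**Figure D3:**
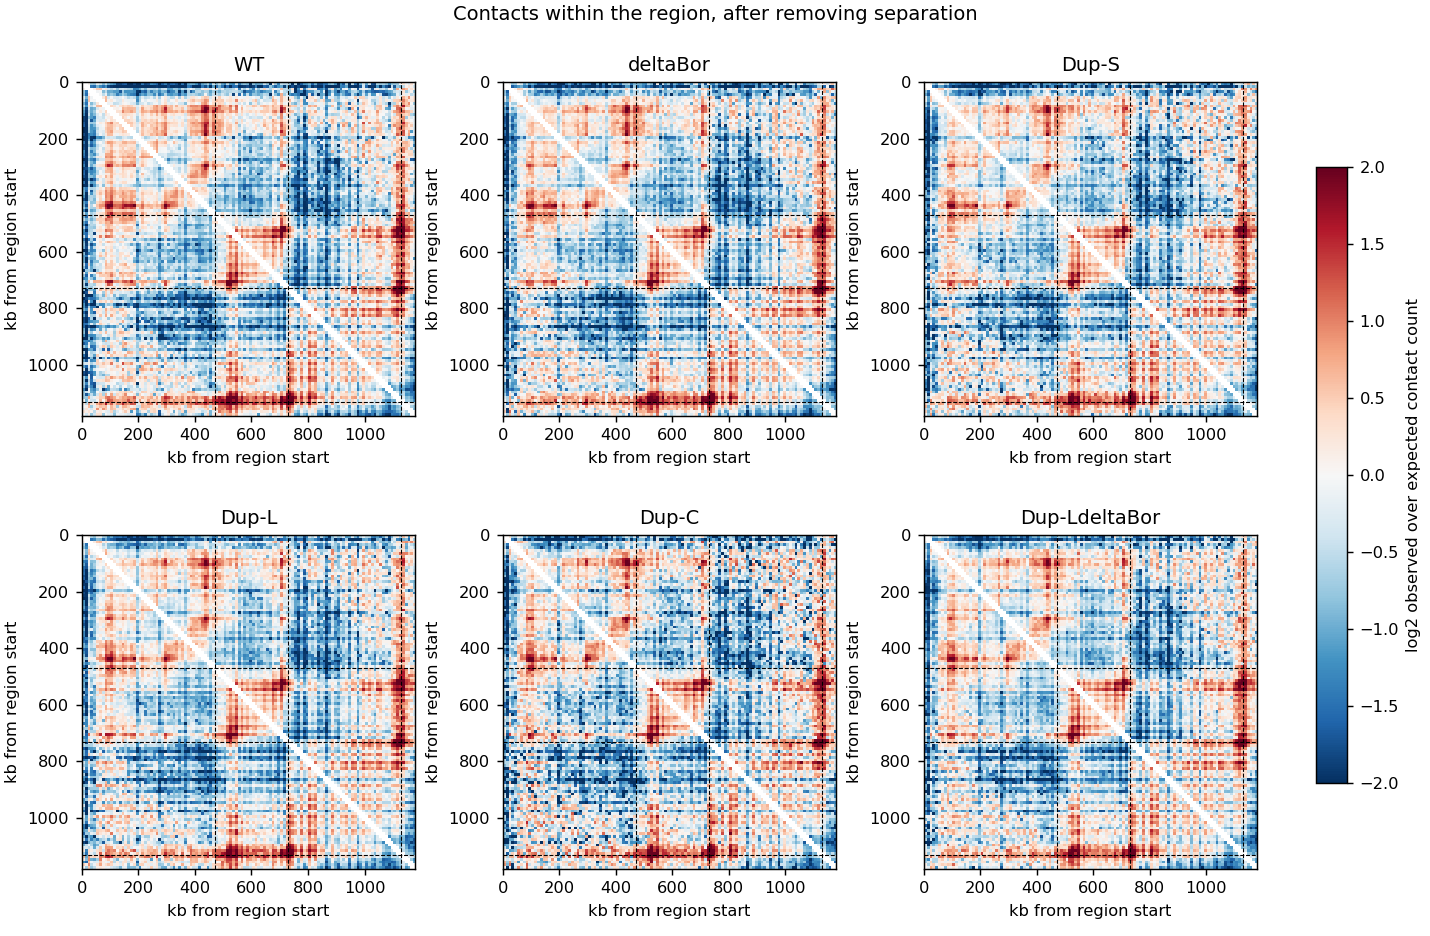
Contacts among 10 kb bins of the region in each library, as log2 of observed over expected counts (pseudocount 0.5), with both axes in kb from the start of the region and dashed lines at the WT edges. Red is above and blue below the expected count; red squares along the diagonal are the domains, and isolated red points, some between edge-near bins and some inside the first domain, include the same 5 strongest WT pairs in all 6 maps.

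Single pairs of bins stood out from their domains. The 5 pairs with the highest observed over expected count in WT, 100 kb or more apart and with at least 50 contacts, were picked by their WT values and then read in the mutants. The strongest joined 109730001 to 109740000, the last bin before the middle edge, with 110120001 to 110130000, beside the outer edge, over 390 kb. Its contact count was 577 in WT, 439 in deltaBor, 421 in Dup-LdeltaBor, 489 in Dup-L, 347 in Dup-S and 206 in Dup-C. Its ratio to the mean pair at that separation was 8.85 in WT, 8.51 in deltaBor, 7.75 in Dup-LdeltaBor, 8.24 in Dup-L, 7.98 in Dup-S and 8.42 in Dup-C. The interval of WT (8.15 to 9.61) overlapped those of all 5 mutants.

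The second pair lay inside the second domain and joined 109530001 to 109540000 with 109710001 to 109720000, 180 kb apart. Its contact count was 820 in WT, 681 in deltaBor, 692 in Dup-LdeltaBor, 770 in Dup-L, 505 in Dup-S and 315 in Dup-C. The ratio was 8.01 in WT (7.47 to 8.58) and 7.23 to 8.03 in the mutants, and no mutant's interval lay apart from that of WT. The third joined the same bin from 109530001 with 110130001 to 110140000, the last bin before the outer edge, over 600 kb and across the middle edge. Its contact count was 283 in WT, 207 in deltaBor, 184 in Dup-LdeltaBor, 199 in Dup-L, 134 in Dup-S and 86 in Dup-C. Its ratio was 7.85 (6.96 to 8.82) in WT, 7.14 (6.20 to 8.18) in deltaBor, 6.29 (5.41 to 7.26) in Dup-LdeltaBor, 6.08 (5.27 to 6.99) in Dup-L, 5.72 (4.80 to 6.78) in Dup-S and 6.72 (5.38 to 8.30) in Dup-C. All 5 mutants had lower values than WT, and Dup-S was the only one of them whose interval lay apart from that of WT. Choosing the pair by its WT value favours a high WT ratio, and the WT interval does not allow for that choice.

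The other pairs lay in the first domain and shared the bin 109440001 to 109450000. Its contact with 109300001 to 109310000, 140 kb away, had 571 contacts and a ratio of 4.85 in WT (4.46 to 5.26), and 4.54 to 5.11 in the mutants. Its contact with 109100001 to 109110000, 340 kb away, had 314 contacts and a ratio of 4.82 in WT (4.30 to 5.38), and 4.57 (Dup-L) to 6.02 (Dup-C) in the mutants. Each of the 5 pairs had the highest ratio of all pairs at its separation in all 5 mutants, among 58 to 104 such pairs. The same rank in WT follows from the choice by WT values. The pairs use 8 distinct bins, of which 6 start within 50 kb of a named edge, as do 32 of the 118 bins of the region. Pairs and edges were both chosen on the WT map, so this is a description only. The bin from 109530001 is counted at a gap of just 50 kb. The bin 109300001 to 109310000 is not counted, but it begins at the further minimum that the 100 kb diamond resolved. With KR-normalised values the ratios over the libraries were 6.81 to 7.37 for the strongest pair, 3.87 to 4.38 for the second and 3.77 to 5.44 for the third.

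Contacts fell with separation in a like manner in each library. In WT the mean count per bin pair was 589 at 20 kb, 245 at 50 kb, 144 at 100 kb, 94.1 at 200 kb, 36.8 at 500 kb and 17.2 at 1000 kb. The slope of log2 mean count on log2 separation from 20 to 500 kb was -0.76 in WT, -0.77 in deltaBor, -0.76 in Dup-LdeltaBor, -0.75 in Dup-L, -0.74 in Dup-S and -0.78 in Dup-C. The standard error of the fits, 0.0153 to 0.0175, describes the scatter of the separations around the line and not a spread between libraries. At the telomeric end the slope was -0.77 in WT and -0.80 (Dup-C) to -0.75 (Dup-S) in the mutants, so Dup-C had the steepest slope and Dup-S the shallowest at both ends of the map. The share of the region's contacts 20 to 100 kb apart was 45.2% in WT, 45.8% in deltaBor, 45.1% in Dup-LdeltaBor, 44.9% in Dup-L, 44.4% in Dup-S and 46.3% in Dup-C. The share over 300 kb apart was 23.4% in WT, 23.3% in deltaBor, 23.2% in Dup-LdeltaBor, 23.5% in Dup-L, 24.2% in Dup-S and 22.4% in Dup-C.

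**Figure D4:**
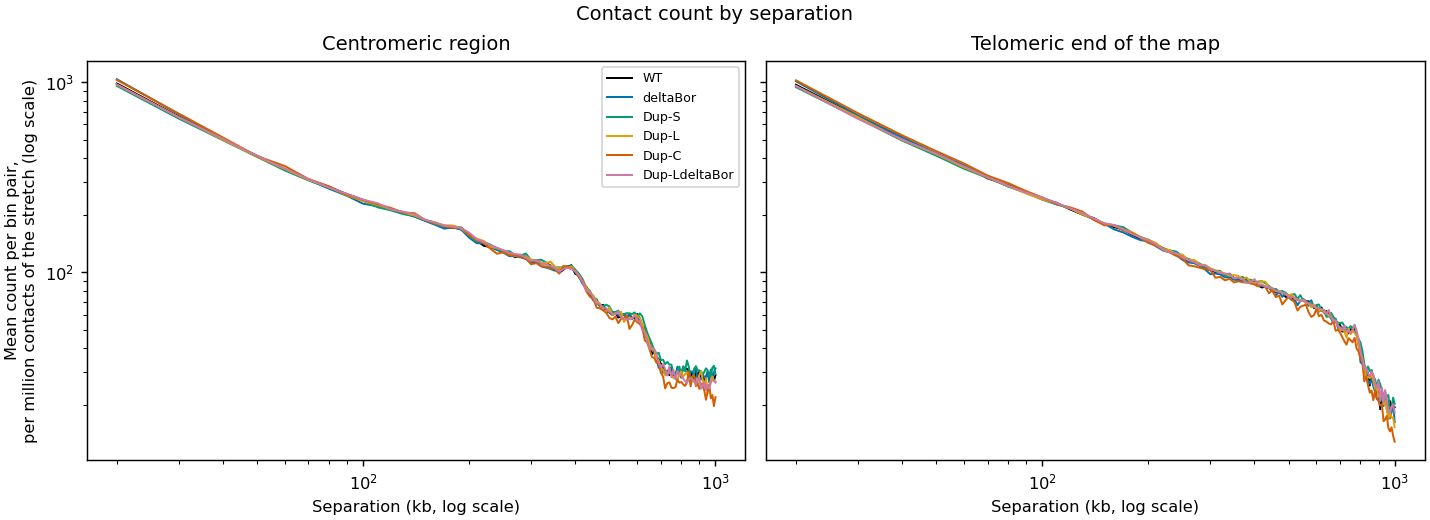
Mean contact count per bin pair, scaled to the contacts of each stretch, against separation in kb, both on log scales, for the centromeric region (left) and the telomeric end of the map (right), with 1 line per library. The lines of the region run close together between 20 and 500 kb, where their slopes are -0.78 to -0.74, and spread at the longest separations.

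Agreement between libraries was measured over the 4508 bin pairs 20 to 500 kb apart, on observed over expected counts. Since these pairs share bins and libraries, the correlations are descriptions. Spearman's rho with WT was 0.941 for deltaBor, 0.932 for Dup-LdeltaBor, 0.937 for Dup-L, 0.931 for Dup-S and 0.893 for Dup-C. Over all 15 pairs of libraries it ran from 0.893 to 0.941 with a median of 0.930. The 5 lowest were the pairs that include Dup-C, the library with the fewest contacts, and the part of depth in this was not tested. At the telomeric end rho was 0.940 to 0.966. The insulation profiles correlated at 0.945 to 0.997 between libraries; neighbouring values share most of their bin pairs.

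A dispersion index set the differences between libraries against counting noise, which alone gives 1; libraries were scaled to their contacts within a class of separation. For pairs 20 to 100 kb apart the index against WT was 1.25 for deltaBor, 1.99 for Dup-LdeltaBor, 1.77 for Dup-L, 1.53 for Dup-S and 1.93 for Dup-C. For pairs over 300 kb apart, whose counts are lower, it was 1.04 to 1.16. Among all 15 pairs of libraries, Dup-L with Dup-LdeltaBor had the lowest index at 20 to 100 kb, 1.12. For the same relative difference the index is larger at higher counts, so it does not rank libraries of unlike depth, such as Dup-C.

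As a baseline for differences on this map, the region was divided into 78 blocks of 100 kb by 100 kb (the last tile is 80 kb), and each block's share of the region's contacts was compared with WT. A fold over 1.2 either way was found in 0 of 78 blocks in deltaBor (background over all blocks of the map on the same scale 21.1%), 1 in Dup-LdeltaBor (65.6%), 1 in Dup-L (58.2%), 1 in Dup-S (24.1%) and 3 in Dup-C (66.6%). The background includes the altered segments and these 78 blocks. Its counts are also noisier. Counting noise alone gives an SD of log2 folds of 0.09 (deltaBor) and 0.11 (Dup-C) over the map, against 0.03 and 0.04 in the region. More blocks of the map can thus pass 1.2-fold by counting noise, and the shares are not on an equal footing. By direction, the block past the threshold was higher in Dup-S and those of the other mutants were lower. Higher blocks were 14.7% in deltaBor, 42.5% in Dup-LdeltaBor, 42.3% in Dup-L, 23.7% in Dup-S, 45.2% in Dup-C over the map, and lower blocks 6.43% in deltaBor, 23.2% in Dup-LdeltaBor, 15.9% in Dup-L, 0.399% in Dup-S, 21.4% in Dup-C. At the telomeric end, scaled on its own contacts, blocks past the threshold either way were 1.28% in deltaBor, 1.28% in Dup-LdeltaBor, 12.8% in Dup-L, 1.28% in Dup-S, 19.2% in Dup-C. All of those were lower except in Dup-C, where 17.9% were lower and 1.28% higher. The 5 comparisons share the WT library. The calls turn on the scale: on the library total, 0 blocks were higher in any mutant, and 6 were lower in Dup-S, 64 in Dup-L and all 78 in Dup-C and in Dup-LdeltaBor.

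Most blocks stayed within 1.2-fold of WT: 74 of 78 passed in no mutant. Many intervals still excluded 1. Of 33 blocks 0 to 200 kb apart this held for 16 in deltaBor, 24 in Dup-LdeltaBor, 24 in Dup-L, 19 in Dup-S and 23 in Dup-C. It held for 3 (deltaBor) to 12 (Dup-LdeltaBor) of 24 blocks at 300 to 500 kb. At 600 to 1100 kb it held for 3 (deltaBor) to 13 (Dup-C) of 21. The SD of the block log2 folds was 0.05 in deltaBor, 0.11 in Dup-LdeltaBor, 0.09 in Dup-L, 0.09 in Dup-S and 0.14 in Dup-C, where counting noise alone gives 0.03 to 0.04. Folds in deltaBor ran from 0.918 (0.881 to 0.955; 109510001 to 109610000 with 109910001 to 110010000) to 1.11 (1.02 to 1.202; 109010001 to 109110000 with 110010001 to 110110000).

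**Figure D5:**
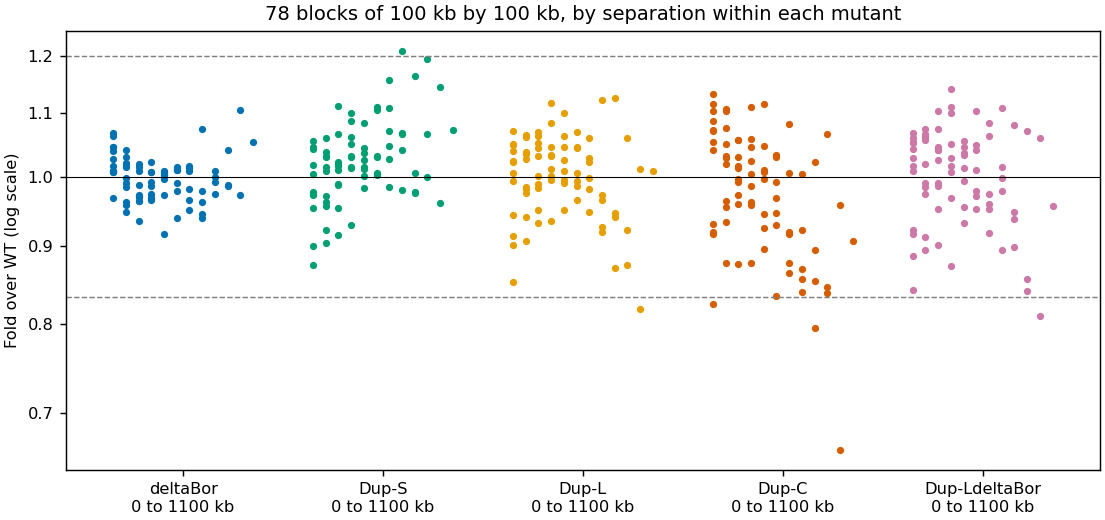
Fold over WT (log scale) of each block's share of the region's contacts, with 1 point per block, ordered from left to right by separation from 0 to 1100 kb within each mutant. Dashed lines mark 1.2-fold either way; all deltaBor points lie between them, and the lowest point, 0.662, is in Dup-C at 1000 kb.

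The lowest block of the region joined 109110001 to 109210000 with 110110001 to 110190000, 1000 kb apart. It held 1875 contacts in WT and 487 in Dup-C, a fold of 0.662 after scaling (0.598 to 0.732). It was also the lowest block in Dup-LdeltaBor, with 1326 contacts and 0.811 (0.755 to 0.870), and in Dup-L, with 1423 contacts and 0.819 (0.764 to 0.878), while Dup-S had 0.961 and deltaBor 0.973. Dup-C passed the threshold in another long-range block, 109210001 to 109310000 with 110010001 to 110110000, at 0.796 (0.724 to 0.874), and in 109110001 to 109210000 with itself, at 0.826 (0.799 to 0.853). The latter was the lowest block in Dup-S, at 0.875 (0.852 to 0.899). The single gain was in Dup-S, between 109010001 to 109110000 and 109710001 to 109810000, at 1.21 (1.13 to 1.30). The highest blocks elsewhere were 1.14 in Dup-LdeltaBor (109010001 to 109110000 with 109310001 to 109410000), 1.13 in Dup-L (109010001 to 109110000 with 109810001 to 109910000) and 1.13 in Dup-C (109510001 to 109610000 with itself).

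Pooled over blocks 600 to 1100 kb apart, the fold over WT was 0.995 in deltaBor, 0.963 in Dup-LdeltaBor, 0.974 in Dup-L, 1.05 in Dup-S and 0.903 in Dup-C. For blocks 0 to 200 kb apart it was 1.00 in deltaBor, 1.00 in Dup-LdeltaBor, 0.999 in Dup-L, 0.988 in Dup-S and 1.02 in Dup-C. Dup-C was thus lowest at long range and highest at short range, and Dup-S the reverse. The share of the region's contacts that touch 109110001 to 109210000 was 15.9% in WT, 15.4% in deltaBor, 14.4% in Dup-LdeltaBor, 14.7% in Dup-L, 14.8% in Dup-S and 13.9% in Dup-C, and of the 12 tiles this one had the lowest fold in each mutant. With KR-normalised values its share was 15.5% in WT and 15.1% to 15.5% in the mutants, and no block of any mutant was past 1.2-fold.

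Most contacts of the region's bins stayed inside it. Inside counts leave out same-bin and neighbouring-bin contacts, while counts of contacts leaving the region have no such cut. On these counts the share with both ends in the region was 65.9% in WT, 66.2% in deltaBor and 63.1% in Dup-LdeltaBor. It was 63.0% in Dup-L, 63.1% in Dup-S and 64.1% in Dup-C. The 4 libraries with a duplication were thus lower on these counts. The left-out same-bin contacts averaged 2007 per bin in WT and 1069 in Dup-C. Neighbouring bins averaged 1245 contacts per pair in WT and 533 in Dup-C. With these added the pattern does not hold, since Dup-C then lies above WT. With KR-normalised values the share was 68.4% in WT, 68.9% in deltaBor, 70.2% in Dup-LdeltaBor, 68.4% in Dup-L, 66.5% in Dup-S and 70.4% in Dup-C. Dup-C and Dup-LdeltaBor then had the highest shares.

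In the authors' deposited difference maps, the share of the region's bin pairs above 0 was 28.9% for Dup-C minus WT, 33.8% for deltaBor minus WT, 43.3% for Dup-S minus WT and 43.5% for Dup-L minus WT. In the authors' deposited map of Dup-LdeltaBor minus Dup-L it was 48.6%. All of these lay under the share over the whole map in the same deposited maps by the authors, which ran from 45.5% (deltaBor minus WT) to 60.3% (Dup-L minus WT). The telomeric end also lay under the whole map in each of the authors' deposited maps, at 32.0% for Dup-C minus WT, 27.1% for deltaBor minus WT, 34.2% for Dup-S minus WT, 45.02% for Dup-L minus WT and 54.8% for Dup-LdeltaBor minus Dup-L. It was lower than the region in deltaBor minus WT and Dup-S minus WT and higher in the other 3 of the authors' deposited maps.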

How the data were processed

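Per the submitters' processing notes, alignment was to mm9 with Bowtie2 2.2.6; names of the deposited files mark mapping quality 30 and 10 kb bins. The authors deposited raw contact counts per bin pair, a KR-balanced signal map per library, and difference maps whose values are treated as scores. Log2 ratio maps were not used. Read-pair filters, duplicate removal and the balancing tool are not stated in these sources. Dup-C and Dup-S maps give offsets, placed from 109010001.

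Raw counts were the main values; pairs under 2 bins apart were left out. Expected counts were means per separation over the region. Blocks needed 50 counts in both libraries. Named regions were the minima, their domains, the 5 strongest WT pairs (leaving out pairs within 3 bins of one already taken on both sides), and the highest and lowest block per mutant. The middle edge, the other blocks past 1.2-fold and the tile from 109110001 were chosen after their values were seen. The members and lists were chosen with earlier results of these data known. Alternatives were other diamonds, block sizes, scalings and separations, KR-normalised values, and leaving out 5 low-coverage bins (under 0.5 of the median bin sum in any library). The procedures were tested on simulated data. Python 3.11.15, numpy 2.4.6, scipy 1.17.1 and pandas 2.3.3 were used.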

Additional observations from a re-analysis of the deposited data

How the results depend on the processing

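Crossing ratios of the 6 libraries stayed below 1 under every alternative run: 30 values at the inner edge (0.610 to 0.730), 36 values at the middle edge (0.512 to 0.862) and 36 values at the outer edge (0.430 to 0.560). Those for the middle edge were added after seeing the data. No crossing of the inner edge could be computed with a 500 kb diamond, which reaches off the map. The WT inner minimum moved to 109470001 with a 100 kb diamond; with 500 kb no minimum of sufficient prominence remained near it, the nearest being 110200001, which was also the outer one. The WT inner crossing ratio was 0.674 with a 100 kb diamond, 0.627 with KR-normalised values, 0.635 without low-coverage bins, 0.647 with pairs 5 or more bins apart and 0.671 with the telomeric end added to the expected counts. The outer ratio was 0.488 with 100 kb, 0.538 with 500 kb, 0.493 with KR-normalised values, 0.455 without low-coverage bins, 0.456 with pairs 5 or more bins apart and 0.481 with the telomeric end. The WT slope was -1.01 over 50 to 1000 kb. Median agreement with WT was 0.969 on counts without removing separation, 0.987 on 50 kb tiles and 0.910 with KR-normalised values.

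Blocks past 1.2-fold depended on the scale. Scaled on the library total, 78 blocks were lower in Dup-LdeltaBor and 78 in Dup-C, 64 in Dup-L and 6 in Dup-S; the median block fold was then 0.696, 0.662, 0.798 and 0.910, and 0.916 in deltaBor. Scaled on the telomeric end, 4 were higher in Dup-S, 11 lower in Dup-C and 4 lower in Dup-LdeltaBor. With KR-normalised values the count was 0 in all 5 mutants. Blocks of 200 kb gave 0 in Dup-S, Dup-L and Dup-LdeltaBor and 1 in Dup-C. Pairs 5 or more bins apart gave 0 in Dup-S, and leaving out low-coverage bins gave 0 in Dup-S and 5 in Dup-C. The deltaBor count was 0 under each of the 6 alternatives run.

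Region over telomeric end with KR-normalised values was 1.02 in deltaBor and Dup-LdeltaBor and 1.01 in WT, Dup-L, Dup-S and Dup-C. With all separations it was 0.958 in WT, 0.951 in Dup-L, 0.929 in Dup-LdeltaBor and 0.927 in Dup-C, and with pairs 5 or more bins apart 0.918 in Dup-LdeltaBor. The cause of these shifts was not tested. Dup-C, at a median of 19.0 contacts per pair, limits what single pairs can show. No paired analysis was possible because each genotype had 1 library.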

Other observations

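Beyond the region, a further insulation minimum lay at 110400001 in WT (200 kb diamond), with a score of -0.68 and a prominence of 0.42 in raw counts. With KR-normalised values its score was -1.15, lower than the -0.95 at the outer edge, and it lay at the same edge in all 6 libraries with scores of -1.18 (deltaBor) to -0.98 (Dup-C). In raw counts the minimum nearest to it lay at 110360001 in deltaBor and at 110380001 in Dup-LdeltaBor.

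Contacts between the region and the telomeric end of the map, which lie on opposite sides of the altered segments, numbered 499 in WT, 519 in deltaBor, 394 in Dup-LdeltaBor, 446 in Dup-L, 549 in Dup-S and 376 in Dup-C per 10000 contacts of the region. Dup-C had the fewest and Dup-S the most.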
